A study of Mus musculus with 40 samples.

Results

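The transcripts of the mitochondrial genome were described in mpkCCD cells, an immortalized mouse collecting duct line used as a model of the vasopressin-responsive principal cell. The members are the rows of the deposited expression table whose symbol starts with mt-, and there are 37 of them among 55414 genes. They are 13 protein-coding genes, 2 ribosomal RNAs (rRNAs) and 22 transfer RNAs (tRNAs). Values are TPM, a transcript abundance that divides a gene's reads by its length and scales every library to a total of 1000000.

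The study removed members of the CREB family of transcription factors to ask how they act on transcription of Aqp2, the vasopressin-regulated water channel. The label ATF1-KO (5 libraries) is called the single label here. ATF1/CREB1-KO (3 libraries) is the double label, and ATF1/CREB1/CREM-KO (3 libraries) the triple label. The 11 control libraries are titled control clone and labelled WT in the genotype field, and are named by replicate number. All 22 libraries share the same culture: cells on Transwell membranes with 0.1 nM dDAVP, a vasopressin analogue, for 72 hours, so no group was without the hormone. The library numbers put control clones 1 to 5 beside the single label (run 1), 6 to 8 beside the double label (run 2) and 9 to 11 beside the triple label (run 3), and each label was compared only within its run. The labels do not call the runs batches, and do not say whether libraries of one group, knockout or control, are separate clones or cultures. The p-values therefore measure only the spread between these libraries, which may be technical. A further 18 samples of a rescue part were not analysed here.

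Mitochondrial DNA is a small circle that encodes core subunits of the respiratory chain and of the ATP synthase, together with the rRNAs and tRNAs needed to translate them inside the organelle. Both strands are transcribed into long precursors by the nuclear-encoded polymerase Polrmt with the factors Tfam and Tfb2m, the tRNAs are cut out at the gene borders, and most of the messenger RNAs receive a short poly(A) tail and are held by the Lrpprc and Slirp proteins. The respiratory chain supplies the ATP that principal cells spend on sodium transport. Pieces of mitochondrial DNA have also been copied into the nuclear chromosomes over evolution, and reads from a mitochondrial gene can match such a copy equally well.

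Only part of the mitochondrial genome had values in the table. Of the 37 members, 27 were listed at 0 in all 22 libraries, 9 were above 0 in all 22, and mt-Nd3 was above 0 in 7 libraries with a highest value of 5.87 TPM. The 27 comprise all 22 tRNAs, which are 59 to 75 bases long, and 5 protein-coding genes: mt-Co2 and mt-Co3 of cytochrome c oxidase (complex IV), mt-Atp6 and mt-Atp8 of the ATP synthase (complex V), and mt-Nd4l of NADH dehydrogenase (complex I). Every cell with a working respiratory chain uses these genes, so they are said only to be listed at 0. The 9 with values in every library were mt-Rnr1 and mt-Rnr2, mt-Nd1, mt-Nd2, mt-Nd4, mt-Nd5 and mt-Nd6 of complex I, mt-Co1 of complex IV, and mt-Cytb of complex III.

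The division between listed-at-0 and measured protein genes followed the nuclear copies. In the GENCODE M21 transcripts (GRCm38), every 50-base window of each member, the read length in the labels, was looked up in the annotated nuclear genes. For 5 members 98.0% to 100% of windows were also in a nuclear copy: mt-Co2, mt-Co3, mt-Atp6, mt-Nd4l and mt-Nd3. Of these, 4 were at 0 everywhere and the other is mt-Nd3. Among the other 10 rRNA and protein genes the share was at most 62.2%, and 9 of them had values in every library. The exception is mt-Atp8, with 0% of its windows in an annotated copy, which was listed at 0. It lies between mt-Co2 and mt-Atp6 and overlaps mt-Atp6 by 43 bases, less than a window. Annotated copies of these neighbours on chromosome 1 leave a gap from chr1:24614651 to chr1:24614885. Only annotated transcripts were searched, so whether that gap holds mt-Atp8 sequence was not tested.

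The first pair of sequences shows the start of mt-Co3, which was listed at 0, beside its chromosome 1 copy Gm28437 (chr1:24613189-24613971, minus strand). Each line gives 90 bases, 5′ to 3′ on the transcript, and the letters of both lines are identical.
mt-Co3: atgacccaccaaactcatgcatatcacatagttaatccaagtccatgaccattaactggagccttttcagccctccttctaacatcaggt
Gm28437: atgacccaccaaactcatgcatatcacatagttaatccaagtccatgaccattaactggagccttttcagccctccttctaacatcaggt

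The second set shows bases 1063 to 1152 of mt-Co1, which kept high values, beside the matching stretch of Gm29216 on chromosome 1 (chr1:24615706-24616197) and of Gm13340 on chromosome 2 (chr2:22588103-22589647), both on the minus strand. Capitals mark the bases at which a copy departs from mt-Co1, and the base of mt-Co1 that Gm29216 replaces.
mt-Co1: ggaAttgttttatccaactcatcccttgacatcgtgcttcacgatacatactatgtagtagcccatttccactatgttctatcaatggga
Gm29216: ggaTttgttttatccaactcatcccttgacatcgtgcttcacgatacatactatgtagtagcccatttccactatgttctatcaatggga
Gm13340: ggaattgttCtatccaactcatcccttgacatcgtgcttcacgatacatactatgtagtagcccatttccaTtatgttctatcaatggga

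The last pair shows the starts of mt-Cytb and mt-Nd1, the members with the highest mean TPM over the 22 libraries, for which no 50-base window was found in an annotated nuclear gene.
mt-Cytb: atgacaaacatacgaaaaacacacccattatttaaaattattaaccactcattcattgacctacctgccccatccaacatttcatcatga
mt-Nd1: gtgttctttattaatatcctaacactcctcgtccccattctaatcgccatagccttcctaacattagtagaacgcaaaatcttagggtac

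The chromosome 1 copies form 1 block of 7 annotated pseudogenes (chr1:24611535-24616197, minus strand). Gm28661 matched mt-Co2 over 681 aligned bases, Gm10925 matched mt-Atp6 over 678 and Gm28437 matched mt-Co3 over 783, each with 0 substitutions. Gm10222 matched mt-Nd4l over 294 bases with 0 substitutions, and Gm28438 matched mt-Nd3 over 345 bases with 1, T3C, counted from 1 at the start of the mitochondrial transcript. The remaining members of the block cover only part of a longer gene.

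Gm28439 matched bases 1 to 876 of mt-Nd4 with 0 substitutions, and Gm29216 matched bases 1063 to 1545 of mt-Co1 with 1, A1066T. So mt-Nd4 and mt-Co1 have stretches of their own as well as shared ones, and both had values in every library. All 7 copies were themselves listed at 0 in all 22 libraries, so neither the 4 members at 0 nor their copies had a value. How the authors treated reads with several matches is not given in the sources used here. On chromosome 2, Gm13340 departs from mt-Co1 at 37 of 1545 bases and Gm13341 (chr2:22587291-22587962) from mt-Co2 at 16 of 672, and their highest values were 1.01 and 2.94 TPM. Gm10222, Gm13340 and Gm13341 were found by this sequence search and were not on the initial list of copies.

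**Figure D1:**
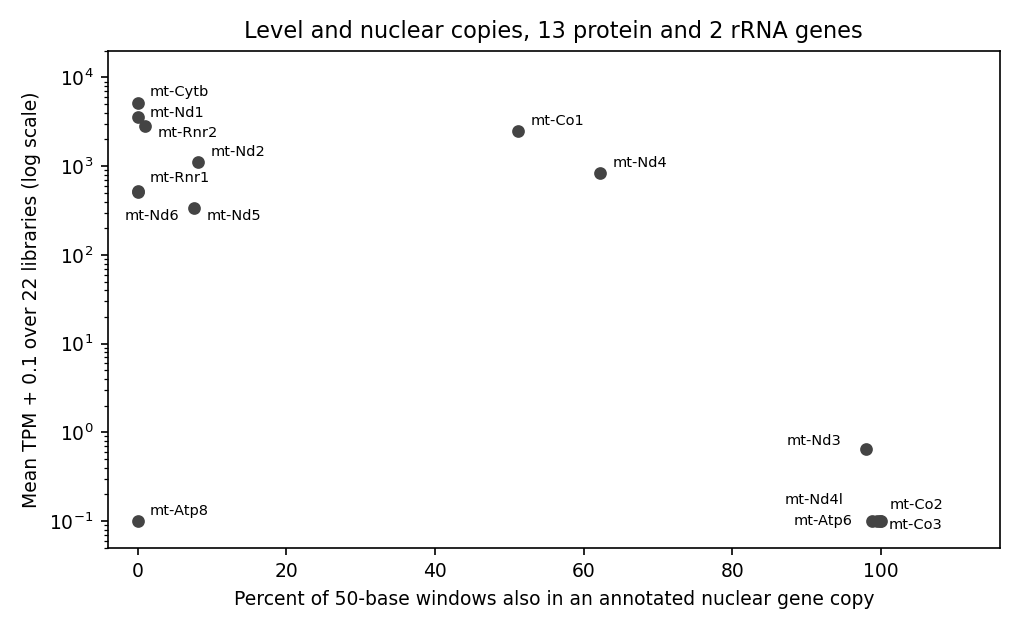
Each point is 1 of the 13 protein-coding and 2 rRNA members. The horizontal axis is the percent of its 50-base windows also found in an annotated nuclear gene and the vertical axis its mean TPM plus 0.1 over 22 libraries, on a log scale. The 5 members at 98.0% or more sit at the bottom right, and mt-Atp8, at 0% and listed at 0, is alone at the bottom left.

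A pair of consequences bears on the values below. Sums over the mitochondrial genome are sums over the 9 measured genes and leave out most of complex IV and all of complex V, and whether the values of mt-Nd4 and mt-Co1 rest on all or part of their length was not tested. The annotation also places mt-Nd6 alone among the measured genes on the minus strand, overlapping mt-Nd5 by 14 bases. The labels do not say whether reads keep their strand. Without strand information, reads of the mt-Nd5 end and of mt-Nd6 cannot be told apart there. Along the rest of mt-Nd6, its reads could then not be told from those of the opposite-strand precursor.

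The check of the labels is brief. Principal cell markers were present (10 of 12 at a mean of 1 TPM or more, with Scnn1b and Elf5 below), and intercalated cell markers summed to at most 0.22 TPM in any library, fibroblast markers to 1.06 and endothelial markers to 0.52. Proximal tubule markers summed to 1.30 to 25.2 TPM, with Slc34a1 and Slc5a2 below a mean of 1, and the leukocyte pair to 1.76 to 13.3 TPM, with Ptprc below. Mean own-run levels of Atf1 were 63.0%, 77.8% and 80.8% of control under the single, double and triple label. Its libraries overlapped the controls under the double label (15.1 to 23.7 against 23.3 to 26.2 TPM) and the triple label (23.7 to 40.8 against 39.8 to 40.5 TPM), where the highest triple-label library was above every control. Creb1 was at 61.0% and 49.6% under the double and triple label, and at 127% under the single label. Crem was at 135% of control under the triple label, against the direction of its name, so groups are named by label. It was also at 133% under the single label and 253% under the double label. A deletion need not remove the transcript, and TPM summed over a gene does not test which part was removed. The table had between 17296 and 20703 genes above 0 per library, and since TPM keeps no read totals, depth is unknown and no counting error can be given.

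The mitochondrial genes together took a larger share of all TPM under the double and triple labels than in the control clones of the same run, and the single label overlapped its controls. In control clones 1 to 5 the share was 1.10%, 1.13%, 0.941%, 1.02% and 1.02%, and in the 5 single-label libraries 1.14%, 0.975%, 0.920%, 0.946% and 0.892%. Single-label library 1 was the highest of all 10, the other 4 lay below the control median, and the groups overlapped. The means were 1.04% ± 0.0758 (SD, n = 5) against 0.975% ± 0.0981 (SD, n = 5), a ratio of 0.934. The exact two-sided permutation test over 252 splits gave p = 0.230, also 0.230 with Benjamini-Hochberg adjustment over the 3 comparisons.

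In run 2 the share was 2.26%, 2.33% and 2.08% in control clones 6 to 8 and 4.31%, 3.21% and 3.20% in double-label libraries 1 to 3. All 3 double-label libraries were above every own-run control, with library 1 well above the other two. The means were 2.22% ± 0.129 (SD, n = 3) and 3.57% ± 0.637 (SD, n = 3), a ratio of 1.61. The exact two-sided permutation p was 0.1, the smallest that 3 against 3 libraries allow, and 0.15 after adjustment.

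In run 3 the share was 1.42%, 1.21% and 1.22% in control clones 9 to 11 and 2.63%, 2.06% and 2.25% in triple-label libraries 1 to 3. Here too the groups did not overlap, and control clone 9 and triple-label library 1 were the highest of their groups. The means were 1.28% ± 0.120 (SD, n = 3) and 2.31% ± 0.289 (SD, n = 3), a ratio of 1.80, with the same exact permutation p of 0.1 and adjusted 0.15, so neither difference could pass 0.05 in this design. TPM are shares, so more mitochondrial RNA and less of other RNA cannot be told apart, nor can a change in all cells from one in some of them.

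Split by kind, the protein genes took 2.68% ± 0.473 of TPM under the double label and 1.29% ± 0.0783 in its controls, and 2.15% ± 0.306 under the triple label and 1.21% ± 0.116 in its controls (SD, n = 3 each). Neither pair of groups overlapped. The rRNAs took 0.898% ± 0.403 against 0.934% ± 0.0515 in run 2, where the groups overlapped, and 0.161% ± 0.0222 against 0.0770% ± 0.00794 in run 3, where they did not.

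**Figure D2:**
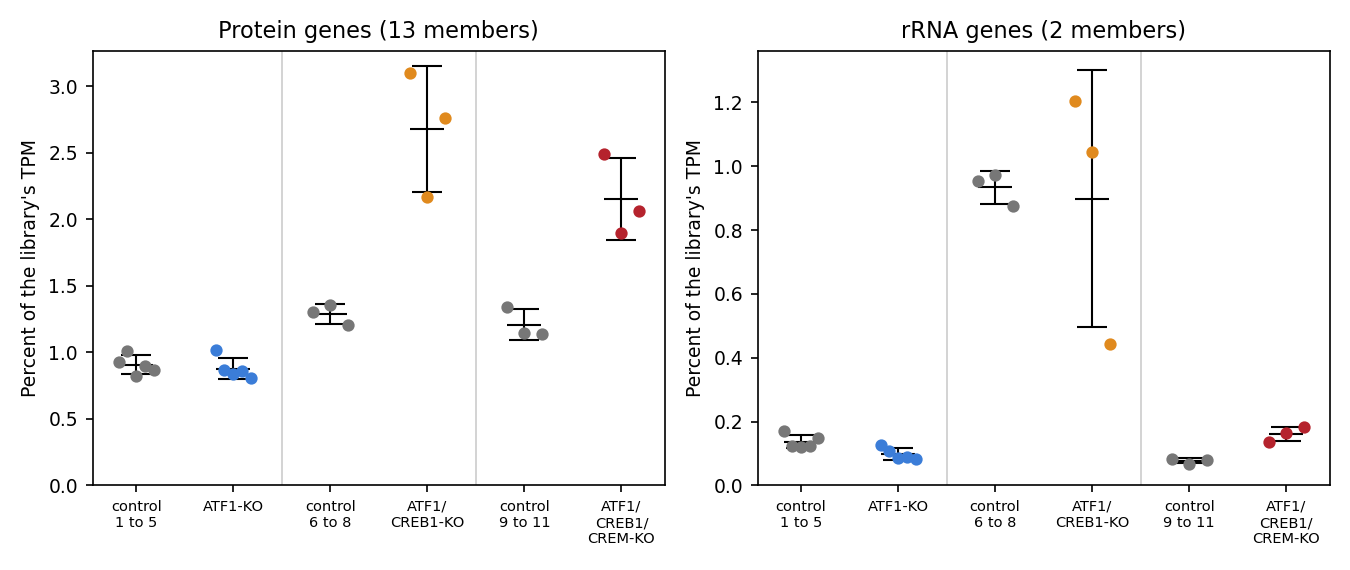
Points are single libraries, with bars for the mean and SD of each group, and the vertical axes give the percent of a library's TPM in the 13 protein genes (left) and the 2 rRNA genes (right). Protein genes are higher under the double and triple labels than in own-run controls (ratios of means 2.08 and 1.78), whereas the rRNA share is set apart by run 2 and is separated from its controls only in run 3.

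Run 2 differed from the other runs in ways that its control clones share. The share of TPM taken by 76 ribosomal protein genes was 14.0% to 14.8% in control clones 6 to 8 and 2.56% to 3.96% in the control clones of runs 1 and 3. Double-label libraries 1 and 2 had 12.8% and 12.3% and library 3 had 6.88%, so the library that sits farthest from its group below also had the lowest ribosomal protein share of its run. In run 3 the ribosomal protein share was 2.99% to 3.20% under the triple label and 3.56%, 3.50% and 3.96% in its controls. With ribosomal protein genes left out of the total, the ratio of mitochondrial shares was 1.54 in run 2 and 1.79 in run 3, and the groups again did not overlap.

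Each gene was tested with limma on log2(TPM + 1). It is called where its Benjamini-Hochberg p, adjusted across every gene in the fit, is under 0.05. A log2 change of 1 on this scale is a doubling, and the error given is its standard error (SE). The 9 measured members were far above the filter of a mean of 1 TPM in every library, the lowest value being 103 TPM, so the filter did not choose among them. For the single label 0 of 9 members were called, as were 0% of all 13318 genes tested. At an unadjusted p under 0.05 there was 1 member of 9, against 7.61% of all genes. For the double label 0 of 10 tested members were called, against 0.0715% of 12579 genes. Of the 9 measured members 4 had an unadjusted p under 0.05, against 9.53% of all genes. The tenth member tested is mt-Nd3, which passed the filter only through its double-label values (5.87, 2.54 and 1.05 TPM, against 0, 0.87 and 0.45 in controls), so it is left out of the counts and medians that follow.

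For the triple label 6 of 9 members were called and all 6 were higher, against 9.17% of 13258 genes called in either direction and 3.91% called higher. The 6 were mt-Cytb, mt-Rnr2, mt-Nd2, mt-Rnr1, mt-Nd1 and mt-Nd4. Every triple-label library was above every own-run control for 8 of the 9, the exception being mt-Nd6, while 14.5% of all genes were separated upward in this way. Under the double label 4 of the 9 were separated upward, mt-Nd1, mt-Nd5, mt-Co1 and mt-Cytb, against 6.67% of genes, and under the single label 0 were, against 0.563%. The median log2 change of the 9 measured members was -0.11, 0.77 and 0.67 under the single, double and triple labels, and over all genes tested -0.00, -0.03 and -0.05.

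The triple-label calls depended on single libraries. Without control clone 9, or against all 11 control clones, only mt-Cytb was called. Without control clone 10, control clone 11 or triple-label library 3, the 2 called were mt-Cytb and mt-Rnr2. Without triple-label library 1 or 2 the count was 7 and 3. With no filter on low values mt-Rnr2 and mt-Nd2 were called and mt-Cytb was not (limma, adjusted p = 0.0856).

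**Figure D3:**
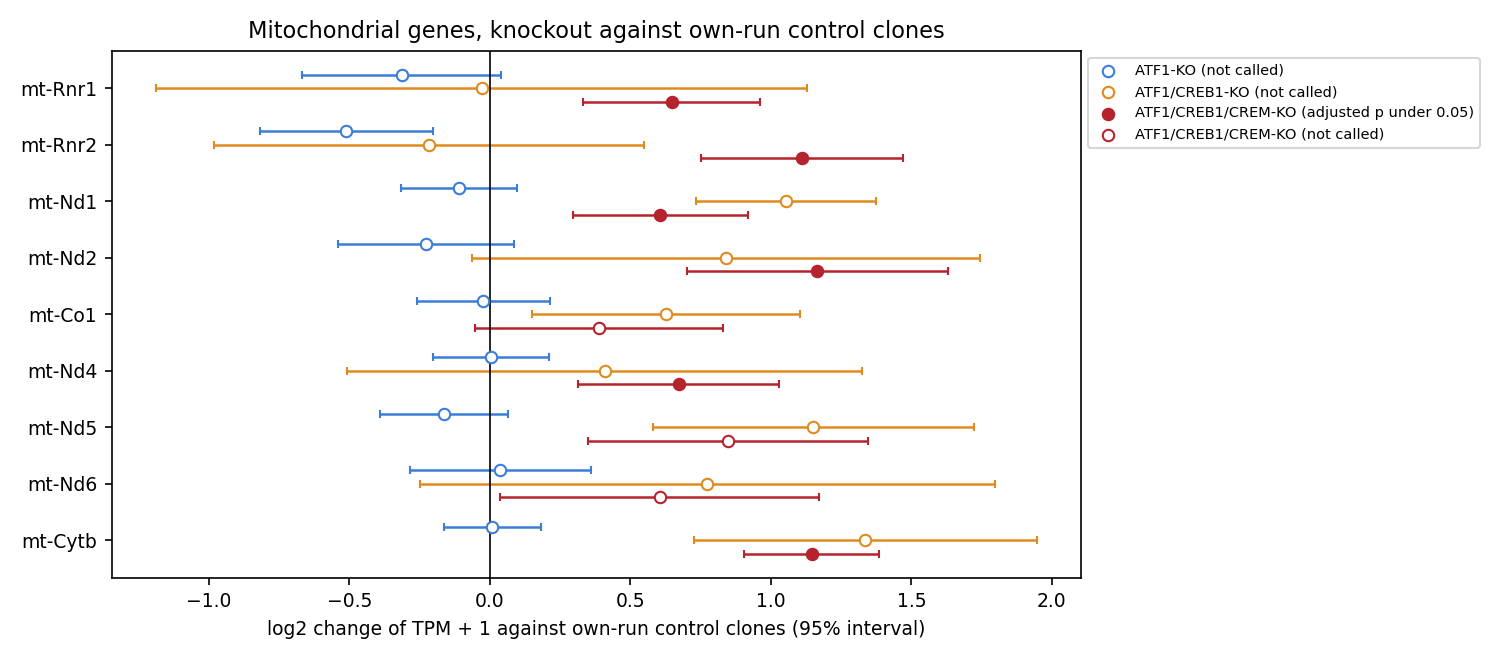
Points are log2 changes of TPM + 1 against own-run control clones from limma, with 95% intervals, and filled points have an adjusted p under 0.05. The triple-label changes all lie above 0, with 6 filled, and the double-label changes of both rRNAs lie near 0 with wide intervals.

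Complex III has a single subunit encoded by mitochondrial DNA, cytochrome b, and its transcript mt-Cytb (chrM:14145-15288, plus strand) showed the clearest difference. Control clones 9 to 11 had 5027, 4341 and 4434 TPM and the triple-label libraries 10993, 9524 and 9995 TPM. The groups were far apart, and mt-Cytb had the highest TPM of any gene in all 3 triple-label libraries, while it ranked 2 to 4 in the controls. The means were 4601 ± 372 and 10170.4 ± 750 TPM (SD, n = 3 each), and limma gave a log2 change of 1.14 (SE 0.10, adjusted p = 0.00255).

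Under the double label mt-Cytb was at 8322, 6075 and 12858 TPM, against 3451, 3731 and 3140 TPM in control clones 6 to 8. All 3 were above the controls, but library 3 was so much higher than the other two that the group's SD was 3455 TPM around a mean of 9085. The log2 change was 1.34 (SE 0.26) and did not pass (limma, adjusted p = 0.201). In the single-label libraries it was 3034 to 3499 TPM with a median of 3203, overlapping the control range of 3043 to 3749, and the log2 change was 0.01 (95% interval -0.16 to 0.18).

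**Figure D4:**
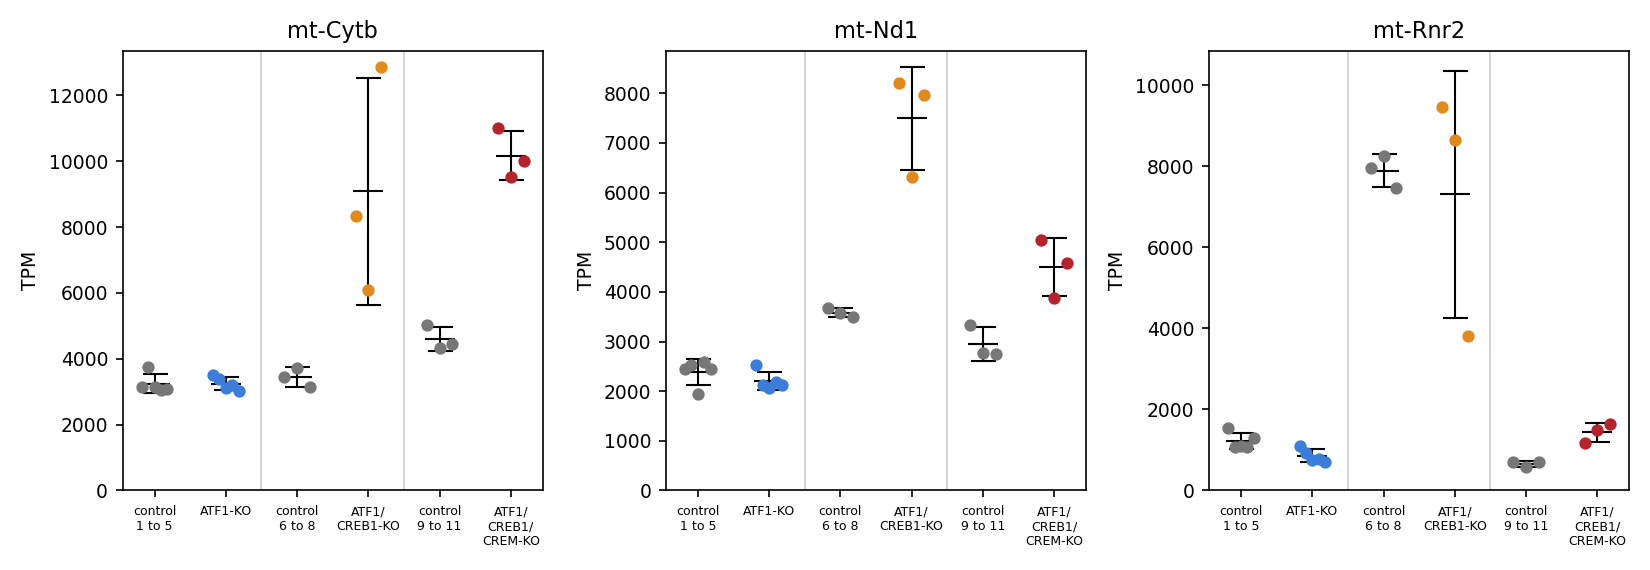
Points are TPM in single libraries for mt-Cytb, mt-Nd1 and mt-Rnr2, with bars for the mean and SD of each group. mt-Cytb is higher under both the double and triple labels than in the own-run controls, whereas mt-Rnr2 is separated only in run 3, and its controls are several times higher in run 2 than in runs 1 and 3.

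Complex I takes electrons from NADH and is the first proton pump of the chain. Its subunit gene mt-Nd1 (chrM:2751-3707) stood at 3685, 3575 and 3493 TPM in control clones 6 to 8 and 8208, 6311 and 7966 TPM under the double label. No double-label library came near the controls. The log2 change was 1.05 (SE 0.14, limma, adjusted p = 0.0568), the smallest adjusted p of any member in this comparison, and it missed the threshold. Without double-label library 3 its adjusted p was 0.0392, the only member call among the fits that left out 1 library of run 2.

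For the triple label mt-Nd1 was at 5044, 3878 and 4575 TPM, against 3335, 2765 and 2746 TPM in control clones 9 to 11. The lowest knockout library lay above the highest control. The log2 change was 0.61 (SE 0.13, limma, adjusted p = 0.0374). For the single label it was 2207 ± 186 against 2389 ± 258 TPM (SD, n = 5 each), with overlapping libraries and a log2 change of -0.11 (limma, adjusted p = 0.781).

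The antiporter-like subunit gene mt-Nd2 (chrM:3914-4951) had the largest log2 change of any member under the triple label, 1.16 (SE 0.20, limma, adjusted p = 0.0184). Its values were 568, 410 and 454 TPM in control clones 9 to 11 and 1384, 883 and 980 TPM under the triple label, with no overlap and triple-label library 1 highest. Double-label library 1 reached 5522 TPM and library 2 3255 TPM, but library 3, at 1702 TPM, was below all of its controls (1801, 1705 and 1736 TPM). That comparison gave 0.84 (SE 0.38, limma, adjusted p = 0.555), and 0.43 without library 1 or 1.28 without library 3, neither called.

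The other antiporter-like subunits are mt-Nd4 (chrM:10167-11544) and mt-Nd5 (chrM:11742-13565). Triple-label mt-Nd4 was 1031, 761 and 805 TPM against 632, 498 and 495 TPM in controls, higher in every library, with a log2 change of 0.67 (SE 0.15, limma, adjusted p = 0.0413). For mt-Nd5 the triple-label values were 783, 447 and 564 TPM against 376, 289 and 312 TPM. The libraries did not overlap, but library 1 was far above the other two and the change of 0.85 (SE 0.21) missed the threshold (limma, adjusted p = 0.0537).

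The same pair parted under the double label. mt-Nd5 was at 511, 344 and 327 TPM against 179, 198 and 147 TPM in control clones 6 to 8, above every control, with a log2 change of 1.15 (SE 0.24, limma, adjusted p = 0.252). mt-Nd4 was at 2920, 1954 and 944 TPM against 1416, 1480.4 and 1101 TPM, where library 3 fell below all controls, and its change was 0.41 (SE 0.39, limma, adjusted p = 0.752). Without double-label library 1 the mt-Nd4 change was 0.0399 and without library 3 it was 0.85, neither called.

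mt-Nd6 (chrM:13552-14070), the complex I subunit gene on the other strand, was not called in any comparison. Its triple-label values of 635, 334 and 425 TPM overlapped with those of control clones 9 to 11, at 353, 276 and 263 TPM, because library 2 was below control clone 9 (log2 change 0.60, SE 0.24, limma, adjusted p = 0.164). With the double label it was 2105, 1620 and 625 TPM against 720, 928 and 636 TPM, with library 3 lowest of all 6. Library 3 was thus below its controls for mt-Nd2, mt-Nd4 and mt-Nd6 and above them for mt-Nd1, mt-Nd5, mt-Co1 and mt-Cytb.

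Of complex IV, which passes electrons to oxygen, only the catalytic subunit gene mt-Co1 (chrM:5328-6872) had values. Under the double label it was at 3441, 2113 and 3157 TPM against 1801, 1952 and 1779 TPM, all above the controls but library 2 only slightly (log2 change 0.62, SE 0.20, limma, adjusted p = 0.436). Under the triple label it was at 5051, 3172 and 3316 TPM against 3114, 2844 and 2681 TPM. The groups were again separated, with library 2 just above control clone 9, and the change of 0.39 (SE 0.19, limma, adjusted p = 0.232) was the smallest of the 9 members. Without triple-label library 1 it was 0.17, not called. For mt-Co2 and mt-Co3, and for mt-Atp6 and mt-Atp8 of complex V, no value above 0 exists to compare.

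The rRNAs form the cores of the mitochondrial ribosome's small (mt-Rnr1, chrM:70-1024) and large (mt-Rnr2, chrM:1094-2675) subunits, and in the own-run fits both were called under the triple label only, although of the differences between labels tested below only triple against single mt-Rnr2 passed. Triple-label mt-Rnr2 was at 1166, 1479 and 1648 TPM against 701, 572 and 703 TPM in controls 9 to 11, with no overlap (log2 change 1.11, SE 0.15, limma, adjusted p = 0.00963). Triple-label mt-Rnr1 was at 207, 154 and 167 TPM against 124, 107 and 103 TPM, also separated (0.65, SE 0.13, limma, adjusted p = 0.0322). Against all 11 control clones, which mixes the runs, the changes turned to -0.26 and -0.57 and neither was called. In mt-Rnr2 library 1 was the lowest of the triple-label libraries, whereas in every other measured member it was the highest.

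Under the double label mt-Rnr2 was at 9467, 8638 and 3820 TPM against 7954, 8258 and 7458 TPM in control clones 6 to 8. Libraries 1 and 2 were above the controls and library 3 far below, and the log2 change was -0.22 (SE 0.33, limma, adjusted p = 0.847). mt-Rnr1 had the same pattern, at 2589, 1811 and 601 TPM against 1578, 1468 and 1294 TPM (-0.03, SE 0.49, limma, adjusted p = 0.986, and 0.0251 under median-ratio scaling). Without library 3 both changes turned positive, to 0.20 for mt-Rnr2 and 0.59 for mt-Rnr1, and neither was called.

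Under the single label mt-Rnr2 was the one member with an unadjusted p under 0.05. It was at 706 to 1097 TPM with a median of 784, against 1064 to 1534 TPM with a median of 1096 in control clones 1 to 5. All but library 1 lay below every control, and library 1 was inside the control range. The log2 change of -0.51 (SE 0.14) did not pass over all genes (limma, adjusted p = 0.555), and that of mt-Rnr1 was -0.31 (SE 0.16, limma, adjusted p = 0.693).

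Levels in the control clones also differed by run, and most for the rRNAs. Mean mt-Rnr1 in control clones 6 to 8 was 9.23 times that of clones 1 to 5 and 13.0 times that of clones 9 to 11, and mt-Rnr2 was 6.50 and 12.0 times as high. mt-Nd2 was 3.83 and 3.66 times as high and mt-Nd4 3.03 and 2.46 times. mt-Nd5 went the other way, at 0.558 and 0.536 times, and mt-Cytb was near the other runs at 1.06 and 0.748 times. Run and label cannot be told apart across runs, which is why own-run controls were used. TPM counts only RNA that entered the libraries. Whether the library kit captured rRNAs as it did messenger RNAs, or alike in each library, was not tested. That limit holds for every rRNA value given here.

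Within the mitochondrial TPM, mt-Cytb took a larger part under the triple label. It was 41.8%, 46.2% and 44.5% of that total in the triple-label libraries and 35.3%, 35.9% and 36.4% in control clones 9 to 11. In the same libraries mt-Co1 was 16.4% ± 2.41 against 22.5% ± 0.903 and mt-Nd1 19.4% ± 0.813 against 22.9% ± 0.463 (SD, n = 3 each). Neither overlapped, and since these are shares of one total, a gene can take a smaller share while its TPM is higher, as both did. Double-label library 3 had 40.2% mt-Cytb, near the values of run 3, while double-label libraries 1 and 2 had 19.3% and 18.9% and control clones 6 to 8 had 15.1% to 16.0%.

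**Figure D5:**
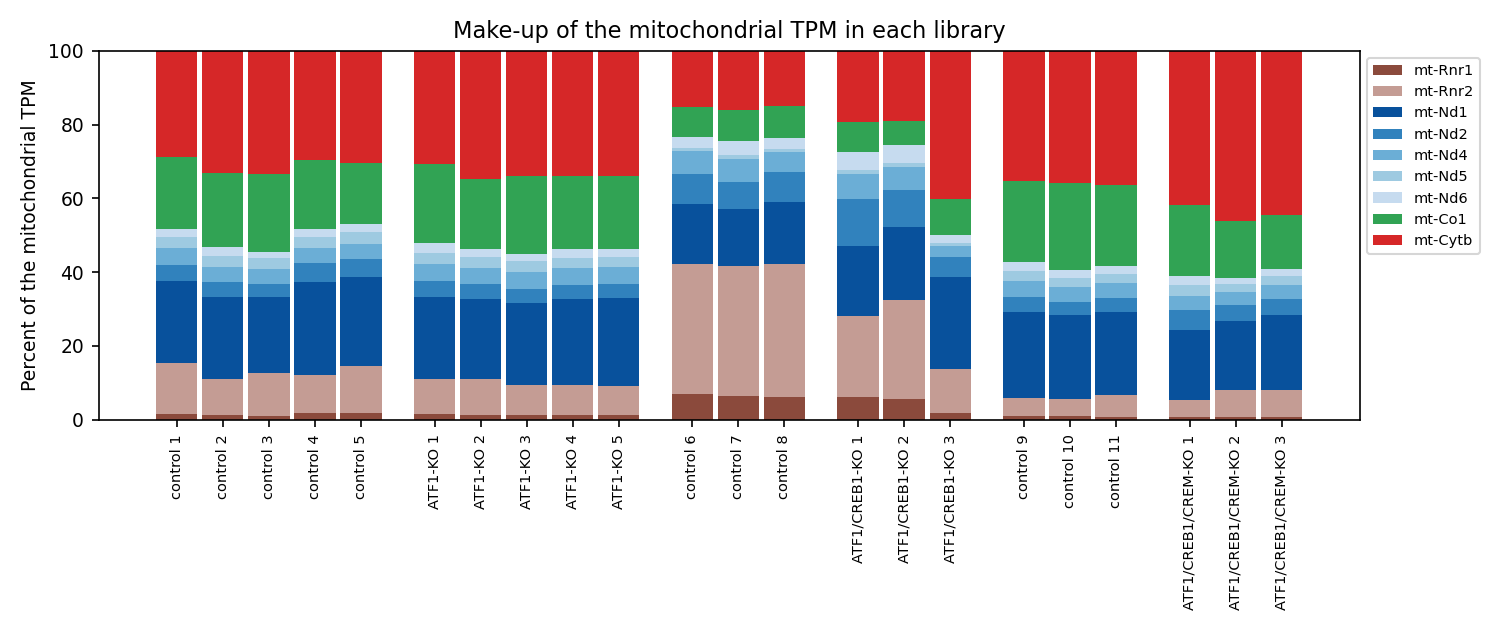
Each bar is 1 library and shows the percent of its mitochondrial TPM in each of the 9 measured members, with mt-Nd3 (at most 5.87 TPM) left out. The rRNAs take a large part in run 2, and double-label library 3 is unlike the other libraries of that run, with 40.2% mt-Cytb.

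Whether a label's change differs from another's was tested within 1 limma fit over all 22 libraries, as the difference between 2 own-run changes. Each label was in 1 run only. A difference between labels therefore cannot be told apart from a change whose size depends on the run. The double label exceeded the single label for 3 of 9 members, against 1.46% of 13295 genes in either direction and 0.384% higher. They were mt-Nd1 (difference 1.17 on the log2 scale, SE 0.17, limma, adjusted p = 0.00145), mt-Nd5 (1.32, SE 0.25, adjusted p = 0.00937) and mt-Cytb (1.33, SE 0.22, adjusted p = 0.00375). That fit gives each gene 1 spread for all 22 libraries, so a wide spread in 1 group is averaged with the others. The own-run SE of the double-label change alone was 0.14 for mt-Nd1, 0.24 for mt-Nd5 and 0.26 for mt-Cytb. None of these was called in the own-run double-label fit. The triple label exceeded the single label for 5 of 9, against 3.57% of genes in either direction and 1.05% higher.

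Those 5 were mt-Rnr2 (1.62, SE 0.32, limma, adjusted p = 0.00622), mt-Nd1 (0.72, adjusted p = 0.0236), mt-Nd2 (1.39, adjusted p = 0.0389, and 0.0738 under median-ratio scaling), mt-Nd5 (1.01, adjusted p = 0.0283) and mt-Cytb (1.14, adjusted p = 0.00622). These 2 tests share the single-label libraries and their controls. Between the triple and double labels 0 of 9 differed, against 0.188% of genes. The largest such difference was in mt-Rnr2, 1.33 (95% interval 0.58 to 2.07, limma, adjusted p = 0.225), with an unadjusted p of 0.00144. For mt-Cytb it was -0.19 (95% interval -0.71 to 0.33).

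The same fit, which borrows the spread of all 22 libraries, also gives each own-run change and is named run as a covariate here. Its calls are thus not independent of the differences between labels. It called 3 members higher under the double label, against 4.58% of genes in either direction and 1.47% higher. They were mt-Nd1 (limma, adjusted p = 1.36e-04), mt-Cytb (adjusted p = 1.91e-04) and mt-Nd5 (adjusted p = 0.00228). The log2 changes are those of the own-run fits given above. The estimate of the spread differs, and so does the set of genes tested, 13295 in this fit. For the triple label that fit called 5 members, against 8.02% of genes and 2.9% higher: mt-Cytb, mt-Rnr2, mt-Nd1, mt-Nd2 and mt-Nd5.

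Summed levels of the principal cell, leukocyte and intercalated cell markers were also separated between the triple label and its controls. Summed principal cell markers, of which 10 of 12 were present, were 5753 to 6583 TPM in its libraries and 7504 to 10492 TPM in control clones 9 to 11. Aqp2, which is on that list, was at 1.02% of its control level. The leukocyte pair (Ptprc below 1 TPM, Cd68 above) summed to 2.28 to 3.35 against 5.00 to 8.02 TPM. Intercalated cell markers, close to the floor, went the other way, at 0.12 to 0.20 against 0 TPM. The proximal tubule markers overlapped, at 1.30 to 25.2 against 19.8 to 21.5 TPM. Their part in the mitochondrial values was not tested.

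The nuclear genes that copy, process and translate the mitochondrial genome were called about as often as all genes in each comparison. A list of 55 such genes was read, with 35 for transcription, genome upkeep and RNA handling, 14 translation factors and 6 upstream regulators. For the single label 0 of 55 were called by limma, against 0% of all genes, and 2 had an unadjusted p under 0.05, against 7.61%. For the double label 0 of 54 tested were called, against 0.0715%, and 4 had an unadjusted p under 0.05, against 9.53%. Under the triple label 2 were called higher, against 3.91% of all genes, and 2 lower, against 5.26%, and 17 of 55 had an unadjusted p under 0.05, against 27% of all genes. The medians of the list's log2 changes were -0.00, 0.12 and -0.13, beside -0.00, -0.03 and -0.05 over all genes.

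Of the RNA handling genes, Lrpprc, which stabilizes mitochondrial messenger RNAs with Slirp, rose under the triple label from 48.1, 48.1 and 44.2 to 68.8, 60.3 and 67.0 TPM (log2 change 0.47, SE 0.09, limma, adjusted p = 0.0278). Every triple-label library was above every control. Fastkd2, an RNA-binding protein of the mitochondrial RNA granule, fell from 85.0, 80.4 and 85.9 to 56.0, 65.2 and 60.9 TPM (-0.46, SE 0.09, limma, adjusted p = 0.0277). The partner gene Slirp was at 534 ± 28.5 against 453 ± 12.0 TPM and was not called (limma, adjusted p = 0.0988).

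Of the translation factors, the ribosome recycling factor gene Mrrf rose from 25.4, 25.3 and 29.5 to 40.7, 59.7 and 53.9 TPM (log2 change 0.90, SE 0.16, limma, adjusted p = 0.0204). Guf1, an elongation factor GTPase of the organelle, fell from 26.7, 21.1 and 21.1 to 0.55, 0.02 and 0.12 TPM (-4.30, SE 0.22, limma, adjusted p = 4.13e-04). Its double-label values were also low, at 0.20, 0.32 and 0.59 against 3.03, 5.87 and 3.47 TPM in control clones 6 to 8, whereas the single-label values of 20.4 to 26.2 overlapped those of control clones 1 to 5, at 21.1 to 29.4 TPM. The transcription genes were not called under the triple label: Tfam was at 87.2 ± 3.75 against 111 ± 7.17 TPM (limma, adjusted p = 0.0534), Polrmt at 48.0 ± 6.44 against 52.2 ± 1.93 (adjusted p = 0.513) and Tfb2m at 11.1 ± 1.14 against 12.6 ± 0.284 (adjusted p = 0.415). For Tfam and Tfb2m every triple-label library was nonetheless below every control, while for Polrmt the groups overlapped.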

How the data were processed

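Libraries were made with the SMARTer V4 Ultra Low kit and Nextera XT and sequenced in pairs of 50-base reads, per the labels' protocols. STAR and RSEM are named in the submitters' processing notes, and the genome build, annotation and handling of reads with several matches are not given in the sources used here. The deposited values are TPM: each of the 22 columns sums to 1000000 within rounding. No 2 columns were identical. From these TPM, log2(TPM + 1) values entered limma (version 3.58.1, R 4.3.3; lmFit and eBayes with trend). Genes whose mean over the compared libraries was under 1 TPM were left out, and p-values were adjusted by Benjamini-Hochberg over the rest, with a threshold of 0.05. Shares of TPM were tested by exact two-sided permutation over libraries. Library numbers from the labels define the runs.

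Of 55414 identifiers, 52081 were found in GENCODE M21 (GRCm38), matched by Ensembl identifier. It gave coordinates and sequences and may not be the authors' build. Copies were sought as exact 50-base windows on either strand of its annotated transcripts, so unannotated copies are not seen.

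The protein-coding and rRNA members are always described, nuclear list genes are named where called, with Slirp, Tfam, Polrmt and Tfb2m added after their values were seen. The members and lists were chosen with earlier results of these data known. The fits were tested on simulated data. Alternatives were a pseudocount of 0.1, no filter, median-ratio scaling, scaling to nuclear genes, all 11 control clones, run as a covariate, a replicate block, and each library left out in turn.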

Additional observations from a re-analysis of the deposited data

Results flagged for a closer look

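In control clones 1 to 5 and the single label, the groups of 5, single libraries stood apart from the other 4 in 7 of 20 groups of values tested (chance gives about 1 in 20). Control clone 3 was low for mt-Nd1 (1940.13 TPM) and mt-Nd2 (323.09 TPM), and control clone 2 was high for mt-Cytb (3749.15 TPM). Single-label library 1 was high for mt-Nd1 (2528.54 TPM), mt-Nd2 (504.13 TPM), mt-Co1 (2458.71 TPM) and mt-Nd5 (356.22 TPM). The values of different genes in 1 library are not independent.

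The tested differences between own-run log2 changes, from the fit with a spread shared by all 22 libraries, were also singled out. The double label exceeded the single label for mt-Nd1 (1.17), mt-Nd5 (1.32) and mt-Cytb (1.33). The triple label exceeded it for mt-Rnr2 (1.62), mt-Nd1 (0.72), mt-Nd2 (1.39), mt-Nd5 (1.01) and mt-Cytb (1.14).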

How the results depend on the processing

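The single label gave 0 member calls under each of its 17 alternatives. For the double label the count of member calls became 6 against all 11 control clones and 3 with run as a covariate, and ranged from 0 to 1 with 1 library left out. For the triple label it became 2 with no filter on low values and 1 against all 11 control clones, and ranged from 1 to 7 with 1 library left out (control clone 9 gave 1, and clones 10 and 11 and triple-label library 3 each gave 2, and library 2 gave 3). Counts over all genes moved too: for the double label 9 became 18 under median-ratio scaling, 4260 against all 11 controls, 609 with the covariate, 0 with no filter and 0 to 60 with 1 library left out, and for the triple label 1216 became 137 against all 11 controls, 710 with no filter and 185 to 3317 with 1 left out. Against all 11 controls the difference in mitochondrial share was -0.456 percentage points for the single label (permutation p = 0.0430), 2.14 for the double (p = 0.00275) and 0.883 for the triple (p = 0.0247), a setting that mixes the runs. With 1 library left out the share difference ranged from -0.110 to -0.0456 (single), from 0.984 to 1.54 (double) and from 0.871 to 1.15 (triple). The single label's exact permutation p was 0.0476 without its library 1.

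Signs turned as follows, and the cause was not tested. Against all 11 controls the single-label log2 changes were -0.16 (mt-Cytb), -0.51 (mt-Nd4), 0.0522 (mt-Nd5) and -0.58 (mt-Nd6), the double-label ones 2.44 (mt-Rnr1) and 1.99 (mt-Rnr2), and the triple-label ones -0.57 (mt-Rnr1) and -0.26 (mt-Rnr2). Under median-ratio scaling double-label mt-Rnr1 was 0.0251. With 1 library left out the ranges that crossed 0 were -0.104 to 0.0274 (single-label mt-Co1), -0.0199 to 0.0616 (single-label mt-Cytb), -0.0573 to 0.0586 (single-label mt-Nd4), -0.0771 to 0.0950 (single-label mt-Nd6), -0.47 to 0.59 (double-label mt-Rnr1) and -0.46 to 0.20 (double-label mt-Rnr2). Some changes kept their sign and moved in size by over 1.5 times. For mt-Nd6 the double-label change of 0.77 was 0.42 without library 1 and 1.29 without library 3, and the triple-label change of 0.60 was 0.35 without library 1. For double-label mt-Rnr2 it was -0.46 without library 1 and -0.39 without library 2.

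Replicate numbers are shared between control clones and knockouts only for the single label. Same-number correlations of deviations were -0.10 to 0.084 over 5 pairs, and 2 of 5 control clones correlated best with their own number, so the numbers were not taken to pair the samples. With the replicate block 0 members were called, and the share difference was -0.0685 with an exact paired permutation p of 0.188. In the other runs no paired analysis was possible because the groups compared share no replicate number.

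TPM keeps no depth, so the counting error of low members such as mt-Nd3 is unknown.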

Other observations

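Ratios between members of the same library, which do not depend on the scaling of TPM, set double-label library 3 apart from its run. The ratio of mt-Nd6 to mt-Nd5, which lie on opposite strands, was 4.03 to 4.68 in control clones 6 to 8, 4.12 and 4.71 in double-label libraries 1 and 2 and 1.91 in library 3. In the 16 libraries of runs 1 and 3 it was 0.572 to 0.954. The ratio of mt-Cytb to mt-Rnr2 was 0.421 to 0.452 in control clones 6 to 8, 0.879 and 0.703 in double-label libraries 1 and 2 and 3.37 in library 3. In control clones 1 to 5 that ratio was 2.06 to 3.47, in the single label 3.19 to 4.30, in control clones 9 to 11 6.30 to 7.59 and in the triple label 6.07 to 9.43. The ratio of the 2 rRNAs, mt-Rnr2 to mt-Rnr1, stayed between 3.66 and 10.5 in all 22 libraries.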
